A study of Arabidopsis thaliana with 6 samples.

Results

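This is an account of 18 nuclear genes in Arabidopsis thaliana ahl13-1 seedlings. Their transcripts were lower by a set margin in every treated library than in every control library. The 18 were chosen from 27371 gene identifiers by measured FPKM (fragments per kilobase of transcript, scaled to the mapped fragments). A gene was taken if all 6 values were above 0, if the mean of the 3 controls was at least 3 FPKM, and if the highest treated value was below 0.75 times the lowest control value. Chloroplast and mitochondrial genes and NAS2 (AT5G56080) were left out. Of 11356 nuclear genes above the level limits, the 18 are 0.159%, and this share describes the choice and tests nothing. All differences between groups given for the 18 are descriptions, since those values chose the genes.

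The study measured transcripts by paired-end mRNA sequencing of whole seedlings aged 14 days, grown on plates without sugar. All 6 libraries came from the insertion line ahl13-1 (SALK_014014), so both groups carry the same mutation in AHL13, a nuclear protein with AT-hook DNA-binding motifs. The 3 controls are labelled only as control, with no word on what they received. The other 3 libraries came from seedlings spray-inoculated for 24 hours with a Pst hrcC suspension of optical density 0.002. In Pst hrcC, a derivative of the tomato and Arabidopsis pathogen Pseudomonas syringae, the type III secretion apparatus that injects effectors into plant cells is defective. No wild type was used here, and the values therefore show nothing about what the mutation does. AHL13 (AT4G17950) itself had control values of 2.32, 2.17 and 2.47 FPKM and treated values of 1.98, 2.43 and 2.08 FPKM. The position of the insertion is not given in the sources used here, so these values do not check the mutation.

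As background, plant cells sense conserved bacterial molecules with surface receptors and switch on defence transcripts, and part of the transcriptome falls at the same time. Genes of growth, of nutrient uptake and of the cell surface are commonly among those that fall. Many genes of such sets have no assigned function, and this holds for several genes below.

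FPKM values carry no fragment counts, and the composition of the libraries differed. The short transcript AT2G01021 took from 15.6% to 52.0% of the summed FPKM of a library. The lowest values that long genes reach gave a rough guide to depth, by which control replicate 1 and Pst hrcC replicate 3 were the shallowest libraries and the 4 others were 2.65 to 4.19 times as deep as control replicate 1. By the same guide the lowest value of any of the 18 genes stood at 8.81 times the low-end value of its library. Leaf markers (10 genes) summed to between 43830 and 58862 FPKM and root markers (18 genes) to between 79.6 and 96.3 FPKM, with overlapping ranges in the groups. Phloem companion cell markers (2 genes) summed to between 45.0 and 49.2 FPKM in controls and between 36.9 and 45.4 FPKM after Pst hrcC. Guard cell markers (4 genes) summed to between 15.1 and 17.8 FPKM in controls and between 11.03 and 14.99 FPKM after Pst hrcC, the highest of them just under the lowest control. The part of these markers in the results below was not tested. In whole seedlings, fewer cells of a type and less RNA per cell cannot be told apart.

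After Pst hrcC the 18 genes stood at between 28.7% and 64.2% of their control means, with a median log2 ratio of -0.998. Over the 11356 genes that could have been chosen the median was 0.02. The same rule with the groups exchanged took 255 of 11731 genes (2.17%), which is 14.2 genes higher for each gene lower, and those had a median log2 ratio of 1.80. The lower side thus held fewer genes and smaller differences. Groups that do not overlap at all were found lower in 4.1% and higher in 8.52% of the genes that could have been chosen. When libraries were rescaled by their summed nuclear FPKM, which AT2G01021 moves, 2 genes met the rule and none of the 18 was among them; the median of the 18 was then -1.06. Leaving out any 1 library raised the count to between 41 and 161, the highest without Pst hrcC replicate 1. Control means of the 18 ran from 3.25 to 239 FPKM, and 9 genes lay below 10 FPKM.

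**Figure D1:**
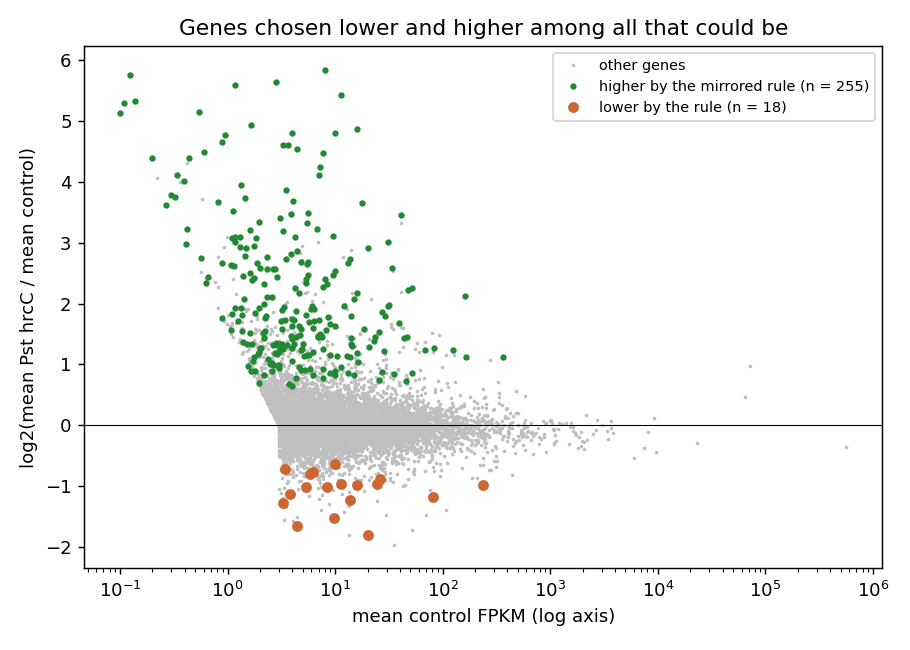
Log2 ratio of group means (vertical) against mean control FPKM (horizontal, log axis) for nuclear genes above the level limit in either direction. The 18 genes lower by the rule lie between -1.80 and -0.64, while the 255 higher by the mirrored rule have a median of 1.80. The level limit applies to controls for the lower side and to treated libraries for the higher side, and 6 genes lie outside the axes.

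The gene with the lowest ratio was AT1G73120, annotated as an F-box/RNI superfamily protein, a class in which many proteins select others for ubiquitination. It had control values of 17.999, 11.2 and 31.9 FPKM and treated values of 7.16, 2.61 and 7.78 FPKM. Its mean was 28.7% of the control mean, and its controls were also the most uneven, with 20.4 ± 10.5 FPKM against 5.85 ± 2.82 FPKM after treatment (SD, n = 3 each). AT1G06980 had the widest gap between groups. It had control values of 4.57, 4.69 and 4.08 FPKM and treated values of 1.21, 1.90 and 1.14 FPKM, so that the highest treated value was 0.465 times the lowest control value. It was the only gene of the 18 that would have met a factor of 0.5. RefSeq names its product a lumazine synthase, an enzyme of riboflavin synthesis, while the note in the same annotation gives the function as unknown.

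**Figure D2:**
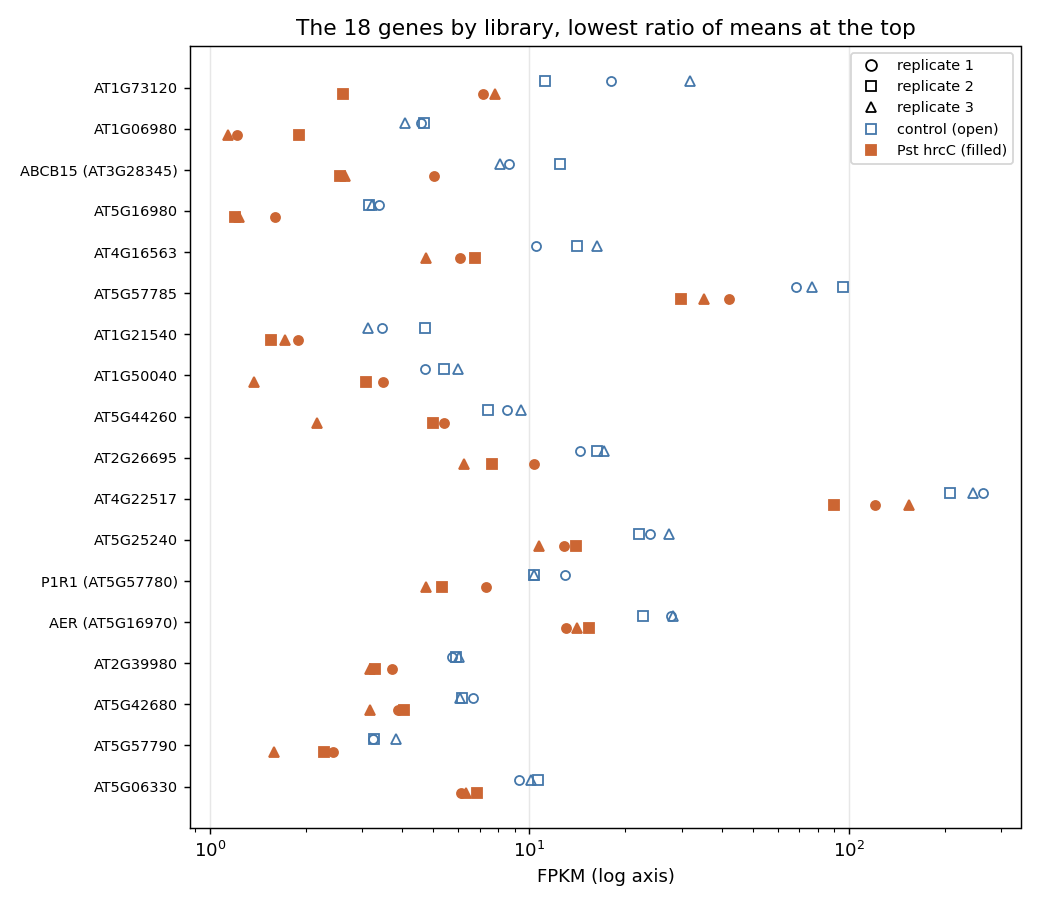
FPKM of the 18 genes (horizontal, log axis) in each of the 6 libraries, with controls as open blue symbols, Pst hrcC as filled orange symbols and the replicate number as the shape. By the choice of genes, every filled symbol lies left of every open symbol in its row, and the gap is widest for AT1G06980.

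Position was not part of the rule, and 5 of the 18 genes (27.8%) had another of the 18 as the next gene of the table on the chromosome. Of the 255 genes higher by the mirrored rule, 36 (14.1%) had such a neighbour among the 255, a larger set. These shares were not tested. The 5 of the 18 form 1 run of 3 genes and 1 pair, both on chromosome 5. The pair are similar copies whose values may not be separate measurements, as given below. The run holds P1R1 (AT5G57780), AT5G57785 and AT5G57790, all on the minus strand, with gaps of 1924 and 2171 bp between them in RefSeq's TAIR10.1 annotation. P1R1 encodes an atypical member of the basic helix-loop-helix family of transcription factors, and the products of the other two are uncharacterized. The sequences just upstream of these 3 genes are shown because the neighbours were lower together. They are the 250 bases before each annotated start, 5′ to 3′ on the gene's strand, from RefSeq's TAIR10.1 genome. Capitals mark TATAAA or CACATG on either strand, and CACGTG was not found in any of the 3.
P1R1 upstream, chr5:23406480-23406729, minus strand: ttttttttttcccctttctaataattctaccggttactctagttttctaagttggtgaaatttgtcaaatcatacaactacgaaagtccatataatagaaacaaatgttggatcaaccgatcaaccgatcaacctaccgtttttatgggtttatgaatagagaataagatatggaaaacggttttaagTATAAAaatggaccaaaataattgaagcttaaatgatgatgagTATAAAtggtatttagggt
AT5G57785 upstream, chr5:23409716-23409965, minus strand: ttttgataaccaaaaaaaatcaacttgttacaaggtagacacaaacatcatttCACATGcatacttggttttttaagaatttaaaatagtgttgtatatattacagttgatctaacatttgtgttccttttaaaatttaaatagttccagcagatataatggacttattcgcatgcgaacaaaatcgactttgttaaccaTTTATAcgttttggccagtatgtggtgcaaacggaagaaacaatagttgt
AT5G57790 upstream, chr5:23414812-23415061, minus strand: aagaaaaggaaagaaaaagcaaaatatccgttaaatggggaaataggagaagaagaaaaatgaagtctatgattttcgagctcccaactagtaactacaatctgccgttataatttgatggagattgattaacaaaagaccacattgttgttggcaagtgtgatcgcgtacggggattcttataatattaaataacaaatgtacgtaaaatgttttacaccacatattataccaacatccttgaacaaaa
P1R1 carries TATAAA in both its marked places, AT5G57785 carries CACATG and, on the other strand, TATAAA, and AT5G57790 carries neither. The marked letters thus differed among the 3 genes. TATAAA was found upstream of 46.0% of all genes that could have been chosen, and the part of such letters in these values was not tested.

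In that run P1R1 had control values of 12.9, 10.4 and 10.4 FPKM and treated values of 7.29, 5.34 and 4.75 FPKM. AT5G57785, the second most abundant of the 18 per kilobase, had control values of 68.5, 96.1 and 77.0 FPKM and treated values of 42.2, 29.8 and 35.3 FPKM. AT5G57790 had control values of 3.23, 3.27 and 3.83 FPKM and treated values of 2.42, 2.28 and 1.59 FPKM. Means after treatment were 51.6%, 44.4% and 60.9% of the control means in that order, and AT5G57790 was the gene closest to the limit of the rule, at 0.749. The flanking genes did not share the direction. AT5G57770 was at 0.992 ± 0.353 and 1.01 ± 0.287 FPKM (SD, n = 3 each). CER3 (AT5G57800), an enzyme of wax alkane synthesis, had control values of 3.91, 2.68 and 2.32 FPKM and treated values of 5.30, 5.24 and 7.23 FPKM, higher in every treated library. CER3 lies on the plus strand, and neither flanking gene was lower in the treated mean.

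The pair on chromosome 5 is AER (AT5G16970) and AT5G16980. AER is an alkenal reductase, which detoxifies reactive carbonyls that arise when lipids are oxidized, and AT5G16980 is a zinc-binding dehydrogenase whose transcript is 89.9% identical to it over 1383 aligned bases. AER had control values of 27.7, 22.7 and 28.1 FPKM and treated values of 13.1, 15.4 and 14.1 FPKM. AT5G16980 had control values of 3.38, 3.14 and 3.22 FPKM and treated values of 1.60, 1.19 and 1.23 FPKM. Group means were 26.2 ± 3.02 and 14.2 ± 1.17 FPKM for AER and 3.25 ± 0.13 and 1.34 ± 0.23 FPKM for AT5G16980 (SD, n = 3 each). The next copies on the same strand overlapped between groups. AT5G16990, whose transcript is 87.4% identical to that of AER, had control values of 4.25, 4.34 and 4.54 FPKM and treated values of 4.43, 4.11 and 4.998 FPKM. AT5G17000 was at 3.66 ± 1.34 and 3.53 ± 0.89 FPKM (SD, n = 3 each), and AT5G16960 reached at most 0.158 FPKM. How the authors' processing divided fragments among such copies is nowhere stated, so the values of AER and AT5G16980 are uncertain to that extent.

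**Figure D3:**
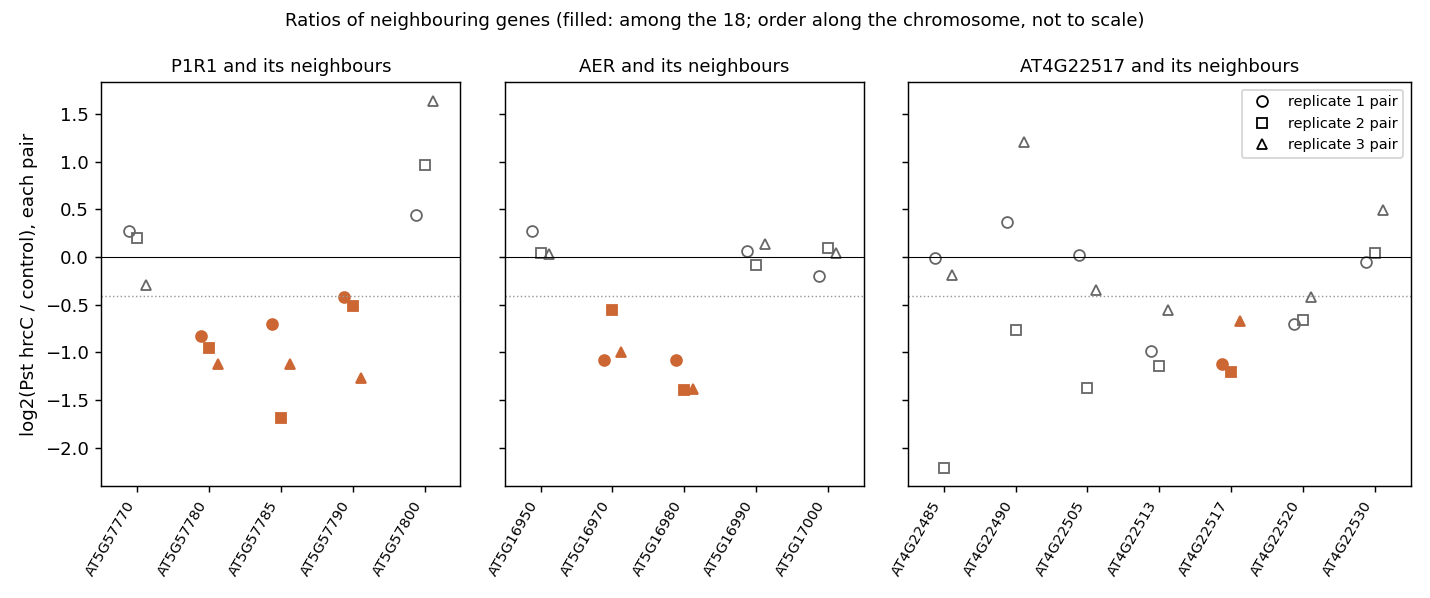
Log2 ratio of Pst hrcC to control in each same-numbered pair for genes in chromosome order around P1R1, AER and AT4G22517. Filled orange symbols are genes among the 18, open grey symbols are their neighbours, and the dotted line is the factor of 0.75. The flanking genes around P1R1 and AER lie around or above 0, while AT4G22513 and AT4G22520 lie below 0 in all 3 pairs. AT5G16960 and AT4G22510, both close to 0 FPKM, are not drawn.

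Other genes of metabolism and transport among the 18 were ABCB15, AT1G21540 and AT2G39980. ABCB15 (AT3G28345), a membrane transporter of the ABC family that RefSeq notes as expressed in stem vascular tissue, had control values of 8.65, 12.5 and 8.07 FPKM and treated values of 5.02, 2.55 and 2.64 FPKM. Its mean of 35.0% of control was the third lowest of the 18. Its relatives ABCB16, ABCB17, ABCB18 and ABCB22 had means of at most 0.132 FPKM in either group. AT1G21540, of the AMP-dependent synthetases that activate carboxylic acids, had control values of 3.45, 4.72 and 3.12 FPKM and treated values of 1.89, 1.55 and 1.72 FPKM. AT2G39980, of the HXXXD acyltransferases that move acyl groups from coenzyme A to plant metabolites, had control values of 5.73, 5.90 and 6.04 FPKM and treated values of 3.71, 3.29 and 3.17 FPKM. The group means of AT2G39980 were 5.89 ± 0.16 and 3.39 ± 0.28 FPKM (SD, n = 3 each), and the rule itself required a gap between groups. The gene shares 532 bp with AT2G39975 on the other strand, which was listed at 0 in all 6 libraries.

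Secreted or membrane-linked families supplied AT4G22517, AT4G16563 and AT5G06330. AT4G22517 encodes a small protein of the lipid-transfer and protease-inhibitor superfamily, whose members are mostly secreted, and was the most abundant of the 18 per kilobase. It had control values of 263, 208 and 245 FPKM and treated values of 121, 90.2 and 154 FPKM, or 239 ± 28.0 and 122 ± 31.9 FPKM (SD, n = 3 each). Its neighbour AT4G22513, whose transcript is 91.5% identical over 602 aligned bases, had control values of 211, 189 and 223 FPKM and treated values of 107, 85.5 and 151 FPKM, and missed the rule at 0.800. AT4G22520, the next gene of the array, had control values of 35.1, 33.5 and 37.9 FPKM and treated values of 21.6, 21.1 and 28.3 FPKM. These 3 neighbours had the same order of treated libraries, with replicate 3 highest and replicate 2 lowest. The groups overlapped in 3 further genes of the array. AT4G22485 was at 37.4 ± 17.5 and 21.6 ± 10.2 FPKM (57.6% of control), AT4G22505 at 29.3 ± 11.8 and 19.0 ± 3.17 FPKM (64.8%) and AT4G22490 at 97.4 ± 31.8 and 118 ± 38.8 FPKM (121%; SD, n = 3 each). The division of fragments between AT4G22517 and AT4G22513 is uncertain for the same reason as above. AT4G22510 covers AT4G22517 on the other strand and was listed at 0 in 4 libraries and at no more than 0.186 FPKM in the others.

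AT4G16563, an aspartyl protease, had control values of 10.5, 14.1 and 16.2 FPKM and treated values of 6.06, 6.74 and 4.75 FPKM. AT5G06330 belongs to the LEA hydroxyproline-rich glycoprotein family. It had control values of 9.27, 10.7 and 10.13 FPKM and treated values of 6.11, 6.84 and 6.34 FPKM. It had the smallest difference of the 18, with a mean of 64.2% of control, at 10.02 ± 0.71 and 6.43 ± 0.37 FPKM (SD, n = 3 each).

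Besides P1R1, genes with domains found in regulators were AT5G44260 and AT2G26695. AT5G44260 is TZF5, a tandem CCCH zinc finger protein of a plant family linked to RNA turnover and seed germination. It had control values of 8.51, 7.44 and 9.39 FPKM and treated values of 5.42, 4.98 and 2.16 FPKM. AT2G26695, with Ran-binding-type zinc fingers, had control values of 14.4, 16.3 and 17.1 FPKM and treated values of 10.4, 7.61 and 6.23 FPKM. In both genes Pst hrcC replicate 3 was the lowest library and Pst hrcC replicate 1 the highest of the treated.

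The last 3 genes are known mainly by family names. AT5G25240, named a stress induced protein, had control values of 23.9, 22.1 and 27.3 FPKM and treated values of 12.9, 14.0 and 10.8 FPKM. AT5G42680 is related to MIZU-KUSSEI1, a protein needed for roots to grow towards water. It had control values of 6.64, 6.14 and 6.05 FPKM and treated values of 3.88, 4.06 and 3.16 FPKM. AT1G50040 carries a domain of unknown function (DUF1005) and had control values of 4.70, 5.41 and 5.96 FPKM and treated values of 3.48, 3.08 and 1.37 FPKM. With AT5G57785 and AT5G57790, 4 of the 18 products (22.2%) were uncharacterized or named for a domain of unknown function, against 9.999% of the genes that could have been chosen. Such products were also frequent among genes just outside the limit, so the share was not particular to the 18.

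Just inside the limit of 0.75 lay AT5G57790 at 0.749, AT4G22517 at 0.740 and AT1G50040 at 0.739. Just outside lay AT4G23870 at 0.762, AT3G45730 at 0.764 and AT2G47485 at 0.768, all uncharacterized. AT4G23870 had control values of 14.6, 15.1 and 25.9 FPKM and treated values of 7.57, 7.72 and 11.1 FPKM, a mean of 47.5% of control that is lower than that of AT5G57790. The limit thus orders genes by the gap between groups and not by the size of the difference.

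The 18 genes were not equally low in the 3 treated libraries. Pst hrcC replicate 3 was the lowest treated library for 10 of them and Pst hrcC replicate 1 the highest for 10, while over all genes that could have been chosen replicate 3 was lowest for 20.4% and replicate 1 highest for 35.5%. Between same-numbered libraries the median log2 ratio of the 18 was -0.79, -1.01 and -1.30 for replicates 1, 2 and 3. The medians over all genes that could have been chosen were 0.07, 0.01 and -0.02. By the rule itself all 18 were below 0.75 in each pair, where 7.34%, 9.29% and 13.4% of the genes that could have been chosen were, and nothing is read from that. A difference of more than 2-fold in the pair was met by 5, 9 and 12 of the 18, and in all 3 pairs by 3. The share of all genes with such a difference is not given, so nothing is read from these counts. The replicate 3 pair was the most negative for 10 of the 18, and for 42.6% of all genes that could have been chosen. Pst hrcC replicate 3 was one of the shallowest libraries, and the part of its depth in this order was not tested. Replicate 1 also stood apart in some gene lists, in both groups. Core clock genes summed to 169 FPKM in both its libraries and between 275 and 359 FPKM in the others, while root markers overlapped. The part of this in the order was not tested either.

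A reading that the choice did not use comes from choosing genes with the same rule on 2 of the 3 same-numbered pairs and reading them in the pair left out, with values above 0 in all 6 libraries. Each such choice held the 18 among its genes. By the full rule the 18 were lower in every pair, so the shares below describe each chosen set and not the 18. Chosen on pairs 2 and 3, 232 genes were lower, and 163 of them (70.3%) were lower in pair 1, where 41.1% of all genes that could have been chosen were lower. Chosen on pairs 1 and 3, 65 of 89 (73.0%) were lower in pair 2, against 47.4% of all. Chosen on pairs 1 and 2, 56 of 95 (58.9%) were lower in pair 3, against 51.9% of all. In each case the share that was lower exceeded that of all genes, by the least in pair 3. The size was not kept: median log2 ratios of -0.87, -0.86 and -0.93 in the choosing pairs became -0.26, -0.31 and -0.11 in the pair read. Genes chosen higher in the same way were higher in the unused pair in 86.6%, 92.2% and 83.4% of cases, where 59.96% (pair 1), 54.0% (pair 2) and 49.0% (pair 3) of all genes that could be chosen higher were, with medians of 0.62, 1.25 and 1.19. These are counts of genes, which are not independent of each other, and no test was made of them.

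**Figure D4:**
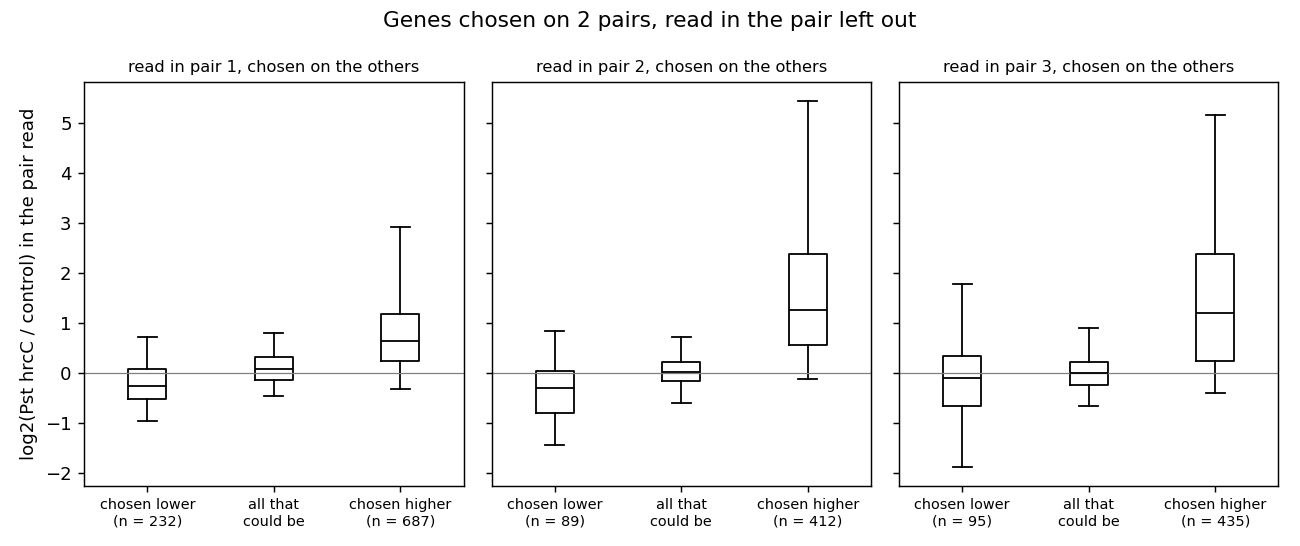
Log2 ratio of Pst hrcC to control in the pair that was left out, for genes chosen lower, for all genes that could be chosen lower and for genes chosen higher on the other pairs. Boxes span the quartiles with the median as a line, and whiskers reach the 5th and 95th percentiles. Medians of genes chosen lower lie at -0.26, -0.31 and -0.11, and those of genes chosen higher at 0.62, 1.25 and 1.19.

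In limma on log2(FPKM + 1), over the 16923 genes that averaged 1 FPKM or more, none of the 18 passed at a Benjamini-Hochberg adjusted p under 0.05, where 1 gene was called lower (0.00591%) and 48 higher (0.284%). All 18 had an unadjusted p under 0.05, as did 276 lower genes in all (1.63%; 619 with the replicate number as a block), and since the same values chose the 18, nothing is read from it. The 1 gene called lower, NAS2, was outside the rule by its exclusion.

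Gene structure was also outside the rule. Of the 18 genes, 15 (83.3%) had at most 2 exons and 9 had a single exon (50%), in the longest annotated transcript. Of the 11321 genes that could have been chosen and are annotated, 36.8% had at most 2 exons and 19.0% a single one, and of the 254 annotated higher genes 39.8% and 22.0%. Spliced length did not stand out, with a median of 1580 bp against 1679 bp, and 9 of the 18 genes lay on chromosome 5, which held 23.2% of all genes that could have been chosen. Genes just outside the limit of the rule also often had few exons, though not all (6 in AT5G53500). The nearest of them, AT4G23870, AT3G45730 and AT2G47485, had 1 exon each, so this trait was not particular to the 18. With 18 genes, of which 5 are neighbours on that chromosome, these shares are descriptions.

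In the 250 bases upstream, searched on both strands, TATAAA was found in 10 of the 18 genes (55.6%) and in 46.0% of all genes that could have been chosen. The G-box CACGTG was in 1 (5.56%) against 7.24%, the W-box core TTGAC, to which WRKY factors bind, in 7 (38.9%) against 44.1%, and CACATG in 3 (16.7%) against 11.2%. The evening element AAATATCT was in 2 (11.1%) against 5.21%. The I-box GATAAG was in 3 (16.7%) against 13.4%, and the auxin response element TGTCTC in 2 (11.1%) against 10.4%. The telo-box AAACCCTA was in 0 of the 18 against 3.33%. None of these letters was shared by all 18 genes.

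Of 28 gene lists written for this work, 1 held a gene of the 18: the lipid transfer proteins, with AT4G22517 among 53 members above the level limits (2 others were higher by the mirrored rule). The median log2 ratio of that list was 0.06. No gene of the 18 belonged to the lists of expansins, xyloglucan enzymes, SAUR genes, wax and cuticle, cold and drought, nutrient transport, photosystems and antennae, ribosomal proteins, histones or the clock. In limma the only list member called lower was NAS2, of the 17 tested iron uptake genes. The counts that follow were not tested, and over all genes that could have been chosen 46.8% had a treated mean below the control mean. Of 39 SAUR genes above the level limits, small growth-linked auxin-induced proteins, 29 had a treated mean below the control mean, with a median of -0.29, and 56 were tested in limma with none called. Of 24 wax and cuticle genes, 21 were below, with a median of -0.22, and 1 of the list was higher by the mirrored rule. Of 198 cytosolic ribosomal protein genes only 30 were below, with a median of 0.15. These lists are examples and do not stand alone. Below were also 13 of 17 expansins, 13 of 18 xyloglucan enzymes and 4 of 4 genes of the GASA list. Of 35 glutathione S-transferases, 12 were below. The median of all genes that could have been chosen was 0.02.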

How the data were processed

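The authors deposited 1 table of FPKM values with 27371 gene identifiers and 1 column for each of the 6 libraries, used as deposited without rescaling. Per the submitters' processing notes, the tools were Cufflinks 2.2.1, TopHat2 2.1.1 and FastQC, on TAIR10; which annotation, strand setting and options were used is not stated. Groups and replicate numbers came from the sample titles. Whether replicates were grown separately is not stated, and p-values thus cover no more than the spread among these 6 libraries.

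The 18 genes were chosen by the rule stated in the text (control mean of at least 3 FPKM, factor 0.75). The members and the lists were chosen with earlier results of these data known. All 18 genes are named; the rule for naming was the 10 with the widest gap, the 10 with the highest control mean, the 3 on each side of the limit and, for any list with at least 3 of them, the 2 to 4 with the lowest ratio. No list held that many, and the genes that this left were named after their values were seen. Neighbouring copies and flanking genes were added after their values were seen. Ratios are of group means without a pseudocount. Limma 3.58.1 in R 4.3.3 was run with an intensity-dependent prior variance on log2(FPKM + 1) of genes averaging 1 FPKM or more, treatment as the only term, two-sided. On simulated independent draws with the spread of these 16923 genes, 200 were lowered. It recovered 28% of 2-fold, 79.5% of 4-fold and 89% of 8-fold differences in FPKM + 1, which are larger differences in FPKM. Larger differences were planted only in genes of higher level, so the 3 shares come from different sets of genes. Across genes, the deviations from the group mean in same-numbered control and treated libraries had correlations of 0.43 (replicate 1), 0.17 (replicate 2) and 0.13 (replicate 3). All exceed 0.1 and the numbers were treated as pairs, which the labels do not state. Correlations between differently numbered libraries are not given, so these values cannot show that libraries pair by number. The main limma fit stays without the pairs, and the fit with them is an alternative.

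Names, exons, upstream sequences and spliced lengths came from RefSeq's TAIR10.1 files, in which 26703 identifiers (97.6%) were found. The deposited table holds no coordinates, and those printed are RefSeq's. Sequences were read with Biopython 1.88 and identities are over aligned bases of a global alignment. The depth guide is the first percentile of FPKM times kilobases over genes of more than 2500 bp with 1 transcript.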

Additional observations from a re-analysis of the deposited data

How the results depend on the processing

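The rule itself keeps the ratios of the 18 genes below 0.75 when libraries or pairs are left out, so their direction there says nothing about stability. Under the 3 rescalings none of the 18 turned positive, which says little about stability either. The rescalings moved the median log2 ratio of all genes that could have been chosen by -0.13, 0.04 and -0.06. The smallest difference among the 18 was -0.64. In the pair left out of the choice, the genes chosen on the other pairs had medians of -0.26, -0.31 and -0.11.

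The number of genes meeting the rule depended on the libraries and limits. In place of 18 it was 41 to 161 without any 1 library (77, 53 and 44 on leaving out control replicate 1, 2 or 3; 161, 43 and 41 for Pst hrcC), since fewer libraries make the rule easier to meet. It was 232, 89 and 97 without the replicate 1, 2 and 3 pairs, 42 and 9 with floors of 1 and 10 FPKM, and 130 and 1 with factors of 0.9 and 0.5. With every same-numbered pair past the factor (the replicate block, chosen after seeing the data) it was 117. Scaled by median-of-ratios it was 26, with all 18 among them, and by the sum of nuclear genes of at least 300 bp it was 15, with 13 of the 18. Scaled by summed nuclear FPKM it was 2, with none of the 18. That sum varies with AT2G01021 and moved the median log2 ratio of all genes by -0.13; the median of the 18 was then -1.06.

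The number meeting the mirrored rule was 255, and 112 scaled by summed nuclear FPKM, 252 to 538 without any 1 library, 695, 415 and 437 without the replicate 1, 2 and 3 pairs, 166 with a floor of 10 FPKM, 507 and 104 with factors of 0.9 and 0.5, and 496 with every pair past the factor (replicate block).

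Limma called 1 gene lower and 48 higher. With a pseudocount of 0.1 it called 2 lower, with a pseudocount of 5 it called 16 higher, and with no filter it called 0 lower and 0 higher (499 and 1103 at an unadjusted p under 0.05). The replicate block gave 2 lower, and 619 in place of 276 lower at an unadjusted p under 0.05. Without any 1 library it was 0 to 11 lower and 2 to 174 higher, without the replicate 1 pair 13 and 187, and scaled by summed nuclear FPKM 25 and 90. Under that scaling 39 genes were lower at an unadjusted limma p under 0.05, and 2 of the 18 were among them. Of the 18, 2 were called on leaving out Pst hrcC replicate 1, 1 on leaving out the whole replicate 1 pair and 0 in each other setting. The causes were not tested.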

Other observations

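Close to the limit of the rule, and chosen after their values were seen, were several genes of named function. COR47 (AT1G20440), a dehydrin that rises in the cold, had control values of 215, 314 and 270.4 FPKM and treated values of 170.1, 150.1 and 162 FPKM. PATL1 (AT1G72150), a lipid-binding protein of the cell plate, had control values of 158, 173 and 167 FPKM and treated values of 114, 125 and 108 FPKM. GPX1 (AT2G25080), a chloroplast glutathione peroxidase, had control values of 72.6, 67.5 and 88.0 FPKM and treated values of 52.5, 45.6 and 53.8 FPKM. FBA5 (AT4G26530), an aldolase, had control values of 89.5, 106 and 96.2 FPKM and treated values of 63.5, 70.04 and 42.7 FPKM. Like the 18, none of the 4 overlapped between groups, which held for 466 of the 11356 genes that could have been chosen (4.1%).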
